A study of Mus musculus with 6 samples.

Results

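The 9 genes examined here are markers of tissue-resident macrophages, out of 18193 genes that the array annotation names singly: Maf, Adgre1, Mrc1, Cd163, Lyve1, Folr2, Slco2b1, Gpr34 and Rnase4. They were chosen by name, with earlier results of the same arrays known. All 17 probe sets annotated to one of these symbols alone were taken, out of 45037, and the brightest of them, by its mean over the 6 arrays, represented each gene. The arrays held RNA of cells sorted as T-cell progenitors after differentiation of mouse embryonic stem cells on OP9 and OP9-DL1 cells, with IL-7 and Flt3L present in both groups. OP9 is a line of bone marrow stroma, and OP9-DL1 also displays the Notch ligand DL1. GATA3 is a transcription factor needed early in the T lineage. By their labels, 3 samples were homozygous for a disrupted Gata3 (Gata3-/-) and 3 were heterozygous (Gata3+/-), so that no group was wild type. The sources used here do not give the stem cell lines or clones, the sort markers, or whether the biological replicates were separate cultures. The p-values below measure only the spread between these arrays, which may be technical.

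Macrophages that settle in tissues before birth are maintained there by signalling through the receptor CSF1R and clear dead cells, haemoglobin and debris. They are recognised by the product of Adgre1 and by endocytic receptors for sugars, haemoglobin and hyaluronan. The transcription factor c-MAF, encoded by Maf, is needed for part of this programme. Cells of this kind arise early from yolk sac and fetal precursors, and stem cell cultures on stroma can give rise to them.

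Levels are log2 GC-RMA intensities of single probe sets and are compared between genotypes only, never between genes. Probe sets that reached a log2 value of 4 on at least 3 of the 6 arrays were tested. A gene was counted as called when its limma p-value, adjusted by Benjamini-Hochberg over all 20102 probe sets tested, was under 0.05. Differences are Gata3-/- minus Gata3+/-, with the standard error (SE) or 95% interval of the limma fit. For the 9 marker genes this contrast was known when they were chosen, so their differences and counts are a description and not a test. The probe set of Gata3 read 5.87, 6.44 and 5.48 in arrays labelled Gata3-/-, against 5.39, 6.40 and 5.86 in arrays labelled Gata3+/-. The values overlapped, and the difference was 0.05 (95% interval -0.80 to 0.89). The labels do not say which part of the gene was disrupted, and it was not tested whether this probe set lies inside it. This reading is thus no check of genotype, and the labels were taken as they stand. Between 19977 and 20124 probe sets reached the minimum per array, and array medians lay between 8.55 and 8.90 on the linear scale. Arrays of one genotype correlated at 0.974 to 0.990, and arrays of different genotypes at 0.956 to 0.982.

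The marker genes did not behave as one group. Of the 9, 6 reached the minimum, each on all 6 arrays, and Cd163, Lyve1 and Folr2 reached it on none. Slco2b1 and Rnase4 were called lower in Gata3-/- arrays and none was called higher, where 2.41% of the 10302 genes tested were called lower and 2.86% higher. Nothing is read from that count, since the contrast was known at the choice of the genes. The 6 genes that reached the minimum had a median difference of -1.16, against -0.02 over all genes tested. All Gata3-/- arrays lay below all Gata3+/- arrays for 5 of the 6, which was also the case for 16.7% of all genes. Leaving out any 1 of the 6 arrays left 0 of the 6 called with limma, with 3 to 5 at an unadjusted p under 0.05.

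**Figure D1:**
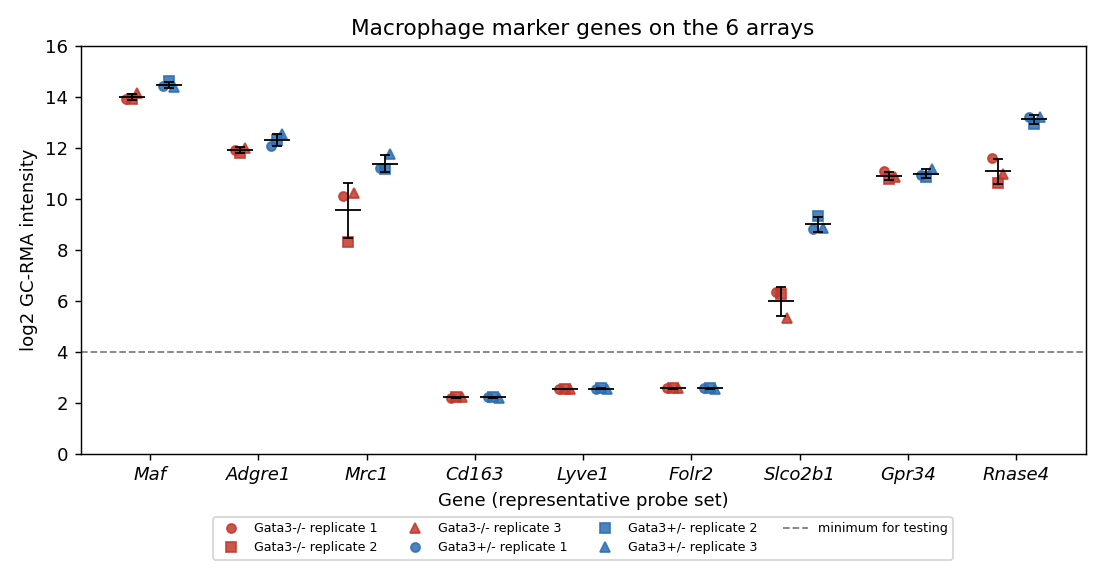
Log2 GC-RMA intensity of the representative probe set of each marker gene on each array, Gata3-/- left of Gata3+/-, with a bar at the mean and error bars of 1 SD (n = 3 each). Slco2b1, Rnase4 and Mrc1 lie at least 0.94 apart between genotypes, Gpr34 overlaps, and Cd163, Lyve1 and Folr2 stay below the minimum of 4 (dashed line) on every array.

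Maf encodes c-MAF, a leucine zipper transcription factor of macrophages that T helper cells also use. Its representative probe set read 13.91, 13.93 and 14.14 in Gata3-/- arrays, against 14.41, 14.61 and 14.41 in Gata3+/- arrays. The genotypes did not overlap, and the gap between the nearest arrays was 0.27. The difference was small, at -0.48 (95% interval -0.73 to -0.23), and it missed the threshold.

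The other probe sets of Maf were also lower in Gata3-/- arrays. The 6 probe sets had differences between -0.48 and -1.23, and only 1447945_at overlapped between genotypes. Of the 6, 2 were called, 1447849_s_at with a difference of -0.54 (SE 0.08) and 1437473_at with a difference of -0.86 (SE 0.15). Of all probe sets tested, 2.12% were called lower. The most negative difference belonged to 1444073_at, which read 5.20, 5.43 and 6.16 in Gata3-/- arrays and 6.28, 7.30 and 6.91 in Gata3+/- arrays. Averaging the 6 probe sets gave a difference of -0.71. Probe sets of one gene read the same RNA, so they are no independent samples.

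Adgre1 encodes an adhesion-class G protein-coupled receptor, the classical surface marker of mouse macrophages. It read 11.92, 11.81 and 12.01 in Gata3-/- arrays, against 12.09, 12.30 and 12.54 in Gata3+/- arrays. The genotypes were separated by 0.08, less than the SD within Gata3+/- arrays of 0.23. The difference of -0.40 (95% interval -0.73 to -0.07) was not called.

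Mrc1 encodes CD206, the mannose receptor, which takes up glycoproteins with exposed mannose. It read 10.10, 8.30 and 10.23 in Gata3-/- arrays, against 11.23, 11.17 and 11.76 in Gata3+/- arrays. Every Gata3-/- array lay below every Gata3+/- array, and Gata3-/- replicate 2 lay far below the others of its genotype. The difference was -1.84, a 3.58-fold lower level, with a wide interval from -3.19 to -0.49, and it was not called. Without Gata3-/- replicate 2 it was -1.22. The same array had the lowest mean level of stromal markers, given below. It was also the lowest of the 6 arrays for core macrophage genes (12.17) and monocyte markers (9.69). What part any of these has in the Mrc1 value was not tested.

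Cd163 encodes the scavenger receptor for haemoglobin bound to haptoglobin, and Lyve1 a hyaluronan receptor of lymphatic endothelium and of vessel-associated macrophages. Cd163 lay between 2.20 and 2.21 in Gata3-/- arrays and between 2.20 and 2.22 in Gata3+/- arrays. The representative probe set of Lyve1 lay between 2.52 and 2.54 in Gata3-/- arrays and between 2.53 and 2.56 in Gata3+/- arrays, and its other probe set lay between 2.48 and 2.498 over all 6 arrays. Folr2 encodes folate receptor beta, a membrane-anchored folate carrier of macrophages. It read 2.56 on each Gata3-/- array and between 2.55 and 2.59 in Gata3+/- arrays. These values are at the floor that GC-RMA leaves for undetected probe sets. They give no fold, and a level too low for these arrays cannot be told from none.

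Slco2b1 encodes an organic anion transporter of the plasma membrane. By its representative probe set it had the most negative difference of the 9 genes and the third most negative of all 10302 genes tested. The representative probe set read 6.35, 6.28 and 5.31 in Gata3-/- arrays, against 8.81, 9.33 and 8.87 in Gata3+/- arrays. The genotypes were 2.46 apart at their nearest arrays, and the difference was -3.02 (SE 0.32, 95% interval -3.81 to -2.24), an 8.13-fold lower level.

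The size of the difference and its rank depended on the probe set of Slco2b1. The second probe set, 1454777_at, read 7.06, 6.83 and 6.44 in Gata3-/- arrays and 7.94, 8.30 and 8.19 in Gata3+/- arrays. It too was called, with a difference of -1.36 (SE 0.19), less negative than those of Rnase4 (-2.05) and Mrc1 (-1.84). Over the 6 arrays 1454777_at was nearly as bright as the representative probe set, and it was brighter on every Gata3-/- array. The choice between them was thus close. The rank, the fold and the closest genes given below rest on the representative one. The third, 1458171_at, lay between 1.97 and 1.98 on all arrays. With the mean of all 3 probe sets, the undetected one included, the difference of Slco2b1 was -1.46.

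**Figure D2:**
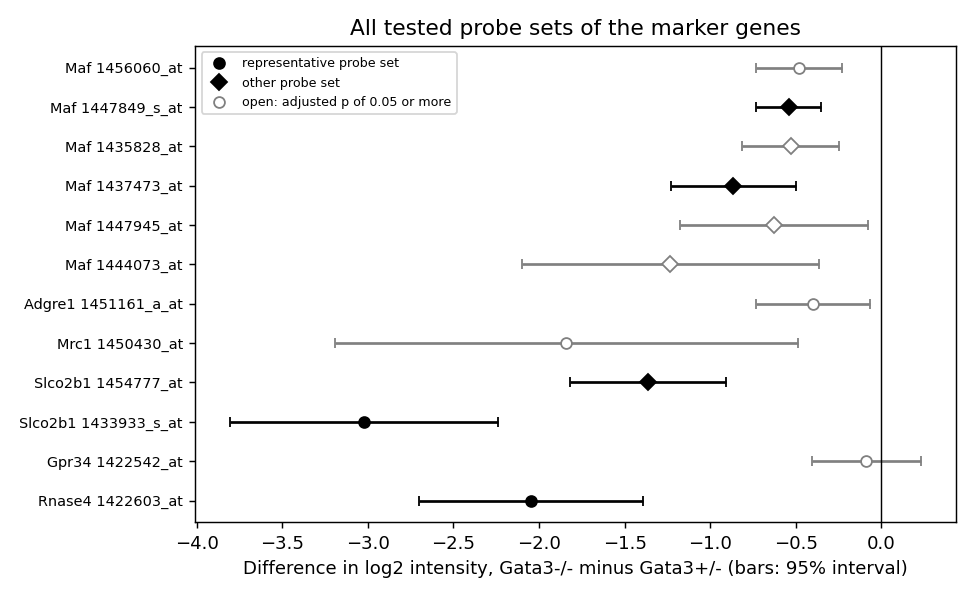
Difference in log2 intensity (Gata3-/- minus Gata3+/-) of each of the 12 tested probe sets of the marker genes, with 95% intervals from limma. Circles are representative probe sets and diamonds the others, filled where the adjusted p was under 0.05. All 12 differences are negative, and only the interval of Gpr34 reaches above 0.

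Gpr34 encodes a G protein-coupled receptor for lysophosphatidylserine that is abundant in microglia, the macrophages of the brain. It read 11.09, 10.77 and 10.85 in Gata3-/- arrays, against 10.94, 10.86 and 11.18 in Gata3+/- arrays. The genotypes overlapped, and the difference was -0.09 (95% interval -0.41 to 0.23). Without Gata3+/- replicate 3 the sign turned, to 0.0055.

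Rnase4 encodes a secreted ribonuclease of the angiogenin family. It read 11.62, 10.63 and 10.98 in Gata3-/- arrays, against 13.22, 12.93 and 13.22 in Gata3+/- arrays. The genotypes were 1.30 apart, and the difference was -2.05 (SE 0.26, 95% interval -2.70 to -1.39), a 4.13-fold lower level.

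The neighbours of Rnase4 on chromosome 14 were lower in Gata3-/- arrays too. Among the 24 tested genes nearest to it in chromosome order, 21 had negative differences, 15 were called lower and none higher (limma), and their median was -0.93. The median over the 341 other tested genes of chromosome 14 was 0.11. Pip4p1, a phosphoinositide phosphatase gene, fell by 1.24 (SE 0.10), and Pnp, the purine salvage enzyme purine nucleoside phosphorylase, fell by 1.17 (SE 0.11). On the other side Ang, encoding the ribonuclease angiogenin, fell by 0.95 (SE 0.10). Its Gata3-/- readings of 4.25, 4.13 and 4.31 lay just over the minimum of 4, against 5.13, 5.06 and 5.34 in Gata3+/- arrays. The size of its difference is thus uncertain. Rnase6, encoding an antimicrobial ribonuclease, had a difference of -1.14 (adjusted p = 0.0589, limma). The most negative of the 24 was Peli2, a ubiquitin ligase gene chosen after its value was seen, at -1.61, a smaller difference than that of Rnase4. The probe set of Ang can also bind related transcripts, which makes its value uncertain. What part of the Rnase4 difference goes with the whole region was not tested.

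The genes nearest to the other marker genes had median differences closer to 0. The medians of the 24 nearest tested genes were -0.12 for Slco2b1 on chromosome 7, -0.03 for Mrc1 on chromosome 2 and -0.0067 for Maf on chromosome 8. They were -0.03 for Adgre1 on chromosome 17 and -0.07 for Gpr34 on the X chromosome. Called lower were 3 of the 24 around Gpr34, 1 around Slco2b1 and 0 around each of Mrc1, Maf and Adgre1, against 2.41% of all genes tested. Cask, beside Gpr34, was among them at -1.06. Around Slco2b1, 18 of the 24 differences were negative, against 53.3% of all genes tested. Of the 2 tested genes on each side of Slco2b1, the signal peptidase gene Spcs2 fell by 0.40. Tpbgl, at -0.99 (adjusted p = 0.0526, limma), and the arrestin gene Arrb1, at -0.56 (adjusted p = 0.0535, limma), narrowly missed the threshold. Rnf169, at 0.09, was not called. The genes beside Mrc1, which were Stamos, Stam, Cacnb2 and Nsun6, had differences between -0.09 and 0.24, and none was called. Gata3 itself lies on chromosome 2, at position -22 from Mrc1 in the order of tested genes. What part this nearness to the disrupted gene has in the Mrc1 difference was not tested.

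**Figure D3:**
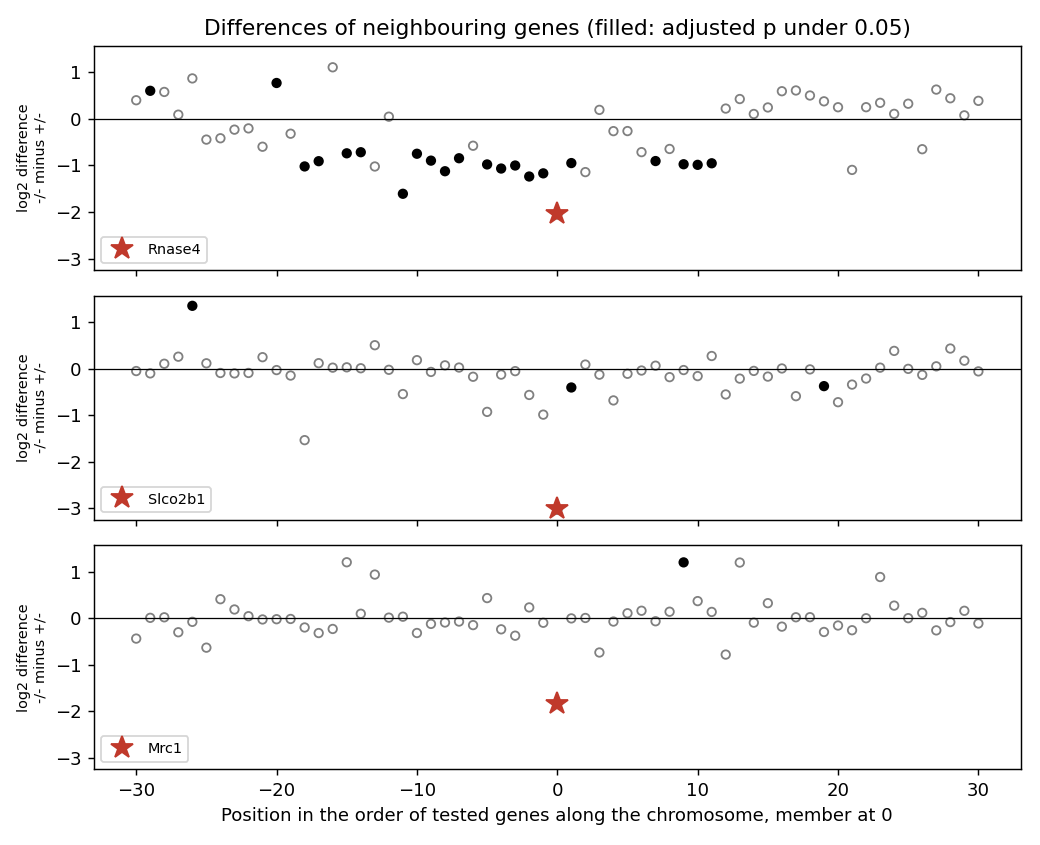
Difference in log2 intensity (Gata3-/- minus Gata3+/-) of tested genes in chromosome order around Rnase4, Slco2b1 and Mrc1, with the marker gene as a star at position 0 and genes with an adjusted p under 0.05 filled. Of the 24 genes nearest to Rnase4, 21 lie below 0, with a median of -0.93.

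The promoters of the 3 marker genes with the most negative differences are shown, because these genes were low together in Gata3-/- arrays. They were taken from RefSeq (GRCm38.p6), as 250 bases before to 50 bases after an annotated start. Capitals mark GAGGAA, the core that PU.1 and related ETS factors bind, on either strand. PU.1 is the main transcription factor of the myeloid lineage.
Slco2b1, chr7:99711291-99711590, minus strand: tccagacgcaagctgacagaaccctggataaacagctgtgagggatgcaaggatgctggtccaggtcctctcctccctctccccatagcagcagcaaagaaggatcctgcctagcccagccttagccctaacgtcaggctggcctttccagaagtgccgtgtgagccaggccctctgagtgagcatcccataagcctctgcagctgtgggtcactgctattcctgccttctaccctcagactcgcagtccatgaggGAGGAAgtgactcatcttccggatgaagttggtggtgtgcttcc
Mrc1, chr2:14229164-14229463, plus strand: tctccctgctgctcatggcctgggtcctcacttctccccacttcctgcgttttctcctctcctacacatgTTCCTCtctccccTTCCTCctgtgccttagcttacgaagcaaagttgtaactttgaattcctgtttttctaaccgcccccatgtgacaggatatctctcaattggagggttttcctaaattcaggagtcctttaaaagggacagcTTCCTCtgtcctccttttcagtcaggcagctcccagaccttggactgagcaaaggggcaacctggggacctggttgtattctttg
Rnase4, chr14:51090827-51091126, plus strand: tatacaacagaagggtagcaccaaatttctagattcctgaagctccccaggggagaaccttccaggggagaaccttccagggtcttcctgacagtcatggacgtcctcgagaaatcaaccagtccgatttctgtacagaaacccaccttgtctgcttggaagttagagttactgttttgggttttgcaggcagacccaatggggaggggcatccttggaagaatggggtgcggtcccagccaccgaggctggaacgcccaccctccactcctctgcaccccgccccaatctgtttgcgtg

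The table of promoters held 9 windows for 5 of the 9 genes, which were Mrc1, Cd163, Folr2, Slco2b1 and Rnase4. GAGGAA occurred 3 times in the Mrc1 window and 1 time in each of the 3 windows of Slco2b1, with 0 matches in the windows of Rnase4, Folr2 and Cd163. Among all 32851 windows, 28.3% held at least 1 match, and 0.685% held at least 3. TGCTGA, a short site of MAF factors, occurred 1 time in each of the 2 windows of Folr2 and in 0 of the others, against 19.5% of all windows. The motif of GATA factors searched for, AGATAA, occurred in 0 of the 9 windows, against 11.2% of all windows. Both strands were read, and no match overlapped another. These are matches of letters in a short window and not binding sites.

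Of the marker genes, 3 ranged over at least 1 log2 unit across the 6 arrays, and the genes closest to them in pattern were sought among the genes tested. Closeness was the root mean square distance between log2 values after subtracting each gene's mean over the 6 arrays. Since the genotypes are far apart in these genes, a close gene is also one with a similar difference between genotypes, and the distances are given as a description. Closest to Slco2b1 were Fcrls, an Fc receptor-like gene expressed in mouse microglia (0.34), Apcdd1, encoding a membrane inhibitor of Wnt signalling (0.44), and Aplnr, the apelin receptor gene (0.51). Closest to Mrc1 were Dram1, encoding a lysosomal membrane protein (0.27), Trem2, encoding a lipid-sensing receptor of macrophages and microglia (0.36), and the kinase gene Nuak1 (0.38). These genes shared the low value of Gata3-/- replicate 2. Closest to Rnase4 were Ccl12, a monocyte chemoattractant gene (0.10), Bach2, encoding a transcriptional repressor (0.24), and the deubiquitinase gene Usp2 (0.28).

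**Figure D4:**
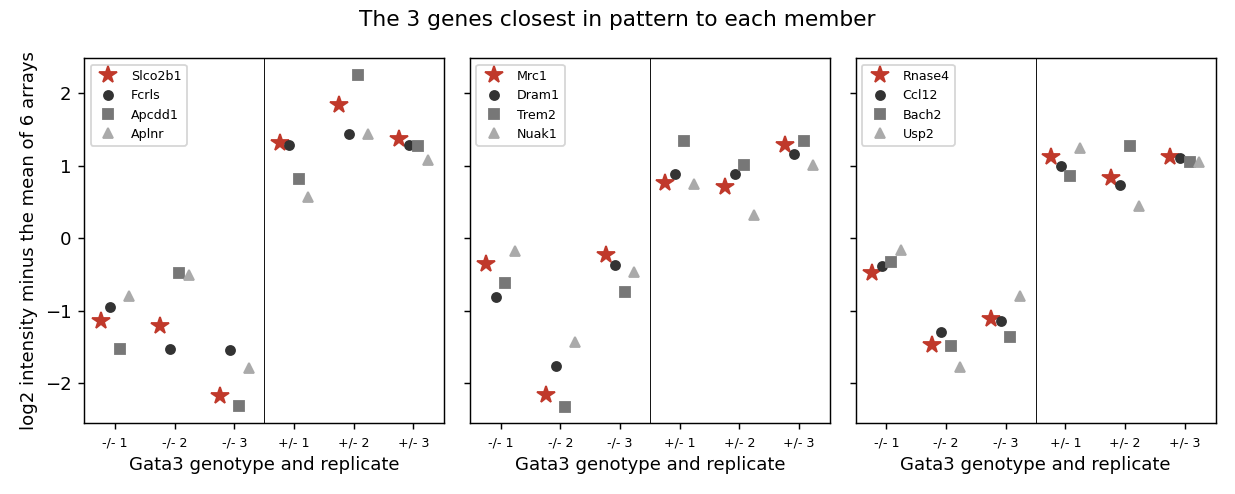
Log2 intensity minus the mean of the 6 arrays for Slco2b1, Mrc1 and Rnase4 (stars) and the 3 genes closest to each in pattern, with the 3 Gata3-/- arrays left of the 3 Gata3+/- arrays. The points of Rnase4 and Ccl12 nearly coincide (distance 0.10), and Gata3-/- replicate 2 is lowest for Mrc1 and for its 3 closest genes.

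Other macrophage genes were read from 3 lists taken from textbook knowledge, with earlier results of these arrays known. They held 47 genes, of which 45 were on the array under a single symbol, 32 were tested and 12 never reached the minimum. Of the 32, 6 were called lower and 0 higher (adjusted p under 0.05, limma; 16 at an unadjusted p under 0.05), against 2.41% and 2.86% of all genes. The median difference was -0.59, with 27 negative and 5 positive values. Without 1 array the number called was 0 or 1, with 12 to 16 at an unadjusted p under 0.05. Each array measured a whole sorted population, so fewer cells of a type and less RNA per cell cannot be told apart.

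Among core macrophage genes, 2 of 14 tested fell and 12 did not pass (limma; 10 at an unadjusted p under 0.05), and the list's median was -0.52. Of the 14 differences, 12 were negative and 2 positive. Their mean level was 12.2 to 12.6 in Gata3-/- arrays and 12.9 to 13.1 in Gata3+/- arrays. Cx3cr1, the fractalkine receptor gene of monocytes and resident macrophages, read 13.23, 12.90 and 12.95 in Gata3-/- arrays, against 13.88, 13.89 and 13.79 in Gata3+/- arrays. It fell by 0.83 (SE 0.11, adjusted p = 0.0323). Fcgr1, encoding the high-affinity IgG receptor CD64, fell by 0.70 (SE 0.12, adjusted p = 0.0431, limma). Trem2 differed most, at -2.46, with readings of 8.42, 6.71 and 8.29 in Gata3-/- arrays and 10.38, 10.05 and 10.38 in Gata3+/- arrays, and missed the threshold (adjusted p = 0.0508, limma). Csf1r, the receptor gene on which macrophages depend, had a difference of -0.22, and the adaptor gene Tyrobp of -0.08. Cd68, a lysosomal glycoprotein gene, stood on the other side at 0.53 (adjusted p = 0.0541, limma). Siglec1, a sialic acid receptor gene, never reached the minimum. These last 5 genes were picked with their values in view, as were the uncalled genes named in the lists that follow.

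The genes that often accompany CD163, LYVE1 and FOLR2 in macrophages were in part undetected. Of 21, 10 never reached the minimum, among them the receptor genes Timd4, Vsig4, Marco and Clec10a. The 11 others were tested, 4 of them with an unadjusted p under 0.05 (limma). Gas6, encoding a ligand of the TAM receptors that bind dying cells, read 8.77, 7.84 and 8.62 in Gata3-/- arrays, against 9.90 to 9.997 in Gata3+/- arrays, and fell by 1.54 (SE 0.25). Fcgrt, encoding the neonatal Fc receptor that recycles IgG, fell by 1.16 (SE 0.17). The chemokine gene Ccl24 was also called lower, with 4.80 on each Gata3-/- array and 5.96, 6.63 and 6.22 in Gata3+/- arrays. Its Gata3-/- readings had an SD of 0.0011, as small as those of undetected probe sets, so no size is given. The other 8 did not pass, among them F13a1, the coagulation factor XIII A chain gene, at -1.74 and Pf4, encoding platelet factor 4, at -0.28.

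Of 7 tested genes shared with microglia, Fcrls fell and 6 did not pass (limma; 2 of the 7 at an unadjusted p under 0.05). Fcrls read 8.14, 7.55 and 7.54 in Gata3-/- arrays, against 10.37, 10.53 and 10.38 in Gata3+/- arrays, a difference of -2.68 (SE 0.18, adjusted p = 0.0217, limma). The purinergic receptor gene P2ry12 had a difference of -0.82 and its relative P2ry13 of 0.02, and the cathepsin gene Ctss of -0.10.

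**Figure D5:**
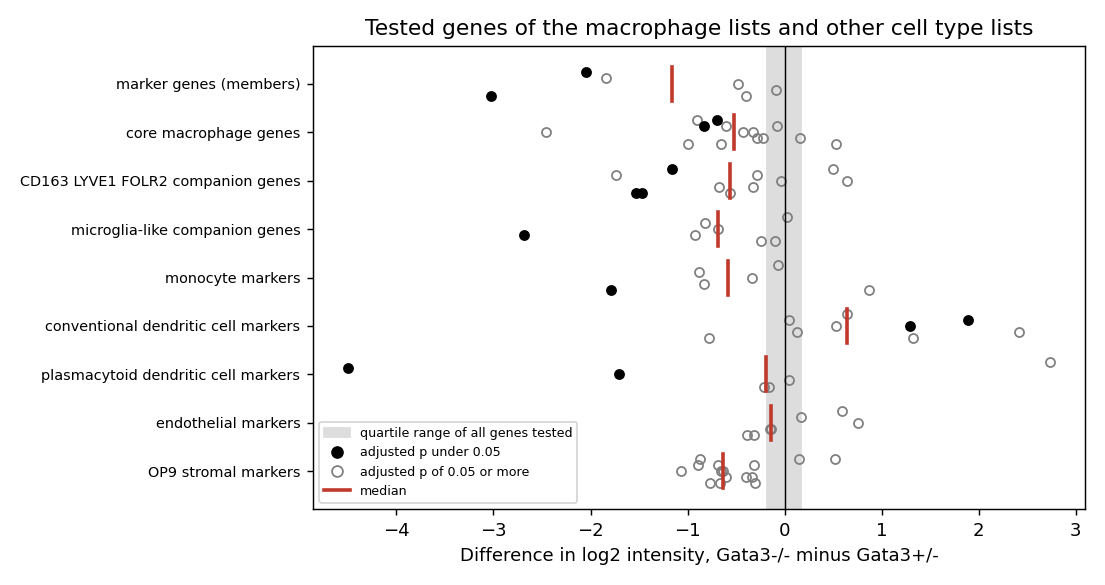
Difference in log2 intensity (Gata3-/- minus Gata3+/-) of each tested gene, one row per list, filled where the adjusted p was under 0.05, with the list's median as a red bar and the range between the quartiles of all genes tested in grey. The medians of the 3 macrophage lists lie between -0.52 and -0.69. Those of monocyte markers (-0.58) and OP9 stromal markers (-0.63) lie in the same range. The medians are -0.19 for plasmacytoid dendritic cell, -0.15 for endothelial and 0.65 for conventional dendritic cell markers. The plasmacytoid list includes Siglech, which entered the test only through the Gata3+/- arrays.

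Of 18 tested transcription factors of macrophages, 11 differences were negative and 7 positive, with a median of -0.16, and 8 had an unadjusted p under 0.05. Irf8, encoding a factor of monocytes and dendritic cells, fell by 0.67 (SE 0.11) and Mef2c by 0.70 (SE 0.10), and 16 did not pass. Spi1, the gene of PU.1, had a difference of -0.11, and Spic, encoding a PU.1 relative of red pulp macrophages, of 0.50. Among the others that were not called, the differences were 2.57 for Bhlhe40, 2.25 for Irf4, 0.92 for Nr1h3, the gene of the sterol receptor LXR alpha, and -1.18 for Cebpa, a myeloid factor gene. Of 9 tested genes of the CSF1 receptor pathway, CSF2 receptors and TGF-beta and IL-10 receptors, 0 were called (limma; 2 at an unadjusted p under 0.05), with a median of -0.09. Csf2rb, the shared chain gene of the GM-CSF receptor, had a difference of 0.12, and Il34, the gene of the alternative CSF1R ligand, never reached the minimum.

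Of 9 tested genes of haem and iron handling, Slc11a1, encoding a phagosomal metal transporter, fell by 0.77 (SE 0.09), and 8 did not pass. In limma, 5 of the 9 had an unadjusted p under 0.05. The haem oxygenase gene Hmox1 had a difference of -0.47 and the iron exporter gene Slc40a1 of 0.91. Genes that IL-4 or glucocorticoids induce were under the minimum or not called. Of 11, 4 never reached the minimum, which were Arg1, Retnla, Chil3 and Mgl2, and 0 of 6 tested were called (limma; 2 at an unadjusted p under 0.05), with a median of 0.48. The phosphatase gene Dusp1 differed by 0.60 and the IL-4 receptor gene Il4ra by -0.47.

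Of 20 tested relatives of the marker genes in the same protein families, 3 rose and 1 fell, and the median was 0.10. An unadjusted limma p under 0.05 was found for 12 of the 20. Ly75, encoding DEC-205, a dendritic cell relative of the mannose receptor, rose by 2.11 (SE 0.36), whereas Mrc1 was lower. P2ry10 and P2ry14, receptor genes related to Gpr34, rose by 2.78 (SE 0.38) and 0.57 (SE 0.09). Ang was the one that fell, with the readings near the minimum given above. The values of Cd163l1, a scavenger receptor gene related to Cd163, were 8.77, 10.60 and 9.22 in Gata3-/- arrays, against 6.08, 6.91 and 7.83 in Gata3+/- arrays, a difference of 2.59 (adjusted p = 0.0777, limma). The probe set of Cd163l1, like that of Ang, can also bind related transcripts. Folr1, the other folate receptor gene, never reached the minimum. Among transporters related to Slco2b1, Slco5a1 read 7.77, 6.77 and 7.53 in Gata3-/- arrays, against 5.54, 3.15 and 5.04 in Gata3+/- arrays. Its difference of 2.78 was not called (adjusted p = 0.0747, limma), and neither were those of Slco3a1 (0.73), Slco2a1 (-0.45) and Slco4a1 (-0.56).

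Markers of other cell types were read for the same arrays. Of 11 T-lineage markers on the array, 10 never reached the minimum, Cd3e, Ptcra, Bcl11b and Rag1 among them, although the cells are labelled T-cell progenitors. Lat, an adaptor gene, was the one tested, with a difference of -0.85 that was not called. Of 9 tested conventional dendritic cell markers 2 rose, Zbtb46 by 1.89 and Cd24a by 1.30, and 7 did not pass (limma; 6 at an unadjusted p under 0.05). Of the 9 differences, 8 were positive and 1 negative. The negative one was that of the factor gene Batf3, at -0.78 (adjusted p = 0.0759, limma). H2-Aa differed by 0.13 and Ciita by 0.05, and Xcr1 and Cd209a never reached the minimum. The list's mean level was 9.58 to 9.94 in Gata3-/- arrays and 8.76 to 9.20 in Gata3+/- arrays. Cd24a is also found on other immature blood cells. Of 6 tested plasmacytoid dendritic cell markers, Siglech, which microglia express too, and Pacsin1 fell, 4 did not pass, and 2 of the 8 on the array never reached the minimum. In limma, 3 of the 6 had an unadjusted p under 0.05. The list's median was -0.19, with a mean level of 7.52 to 7.82 in Gata3-/- arrays and 8.28 to 8.37 in Gata3+/- arrays. Among the 4, the transcription factor gene Spib had a difference of 2.74 (adjusted p = 0.0652, limma), Tcf4, which encodes another factor of these cells, of -0.16 and Bst2 of -0.21. Siglech lay under the minimum on all Gata3-/- arrays, against 8.04 ± 0.85 in Gata3+/- arrays (SD, n = 3). It thus entered the test only through the Gata3+/- arrays, and nothing is read from its call. The counts, median and mean level of the plasmacytoid list include Siglech, so nothing is read from them either. Of 6 tested monocyte markers, Ccr2, the chemokine receptor gene, fell by 1.79 (SE 0.24) and 5 did not pass. The median of the monocyte list was -0.58, with 2 of the 6 at an unadjusted p under 0.05 (limma). Its mean level was 9.69 to 10.6 in Gata3-/- arrays and 10.2 to 11.0 in Gata3+/- arrays. The part of these cell types in the marker gene differences was not tested.

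Lyve1 and Mrc1 are also expressed by some endothelial cells, and Maf by some stromal cells. Of 12 endothelial markers 7 were tested and 0 called (limma; 3 at an unadjusted p under 0.05), with a mean level of 7.575 to 8.005 in Gata3-/- arrays and 7.52 to 7.79 in Gata3+/- arrays. The sinusoidal and lymphatic genes Stab2 and Prox1 and the junction genes Cdh5 and Cldn5 never reached the minimum. Flt4, the gene of a VEGF receptor of lymphatic endothelium, reached the minimum on all 6 arrays, with 6.67, 5.84 and 6.04 in Gata3-/- arrays, against 5.41, 5.29 and 5.59 in Gata3+/- arrays, and its difference of 0.75 was not called. The adhesion gene Pecam1 had a difference of 0.59 and the VEGF receptor gene Kdr of 0.17. Of 17 OP9 stromal markers on the array 15 were tested and 0 called (limma; 1 at an unadjusted p under 0.05), with a median difference of -0.63. The matrix gene Thbs1 had a difference of -0.31 and the smooth muscle actin gene Acta2 of -0.66. Their mean level was 8.59, 7.72 and 9.59 in Gata3-/- arrays and 9.61, 8.13 and 9.67 in Gata3+/- arrays, lowest on the array numbered 2 of each genotype. On these arrays numbered 2, Mrc1 read 8.30 in Gata3-/- and 11.17 in Gata3+/-. The remaining lists gave 1 call among the tested genes, Kit, the stem cell factor receptor gene, which rose by 0.96 among 2 mast cell markers. None of 4 granulocyte, 2 B-lineage and 6 erythroid markers tested was called (limma; 2, 0 and 0 at an unadjusted p under 0.05). Differences were -0.79 for the myeloperoxidase gene Mpo and 2.63 for the calprotectin gene S100a9. They were -0.35 for the B-cell receptor chain gene Cd79b, -0.33 for the B-lineage factor gene Ebf1, -0.87 for the embryonic globin gene Hbb-bh1 and -0.27 for Hbb-y.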

How the data were processed

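The values deposited by the authors are linear Affymetrix intensities made with GC-RMA, per the labels, for 3 Gata3-/- and 3 Gata3+/- arrays. GC-RMA corrects background by probe sequence, normalizes between arrays and leaves a floor for undetected probe sets, where differences carry little information. The submitters' processing notes name GCOS. The sources used here give no versions, settings or genome build.

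Here log2 was taken with no further normalization, and 64 control probe sets were left out. Probe sets at a log2 value of at least 4 on at least 3 of 6 arrays entered the limma test (version 3.58.1, R 4.3.3, two-sided, 20102 probe sets, threshold 0.05), after a check on simulated data. The simulated data had independent noise for each probe set, so that check does not cover deviations that arrays share. The number of arrays limits the precision. Symbols came from the platform annotation. Gene order came from RefSeq GRCm38.p6. Each gene outside the 9 was represented by its brightest tested probe set. Those of Ang, Cd163l1, Slco4a1, Spic, H2-Aa, Hbb-bh1 and Hbb-y are of a type that can also bind related transcripts.

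The members and lists were chosen with earlier results of these data known. From each list up to 5 called genes are named, or the 2 brightest where none was called. Markers that differed by at least 1 are given with 2 tested neighbours on each side, and those that ranged over at least 1 with the 3 closest genes. Other named genes were picked with their values in view.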

Additional observations from a re-analysis of the deposited data

How the results depend on the processing

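All 15 alternatives to the analysis were run. Of all probe sets 878 were called, of the 6 marker genes tested 2, and of the 32 other macrophage genes 6. Without a filter the counts were 166, 0 and 1 (limma; 5 of 9 marker genes and 15 of 45 others at an unadjusted p under 0.05); the cause was not tested. Without both arrays numbered 2 they were 4, 0 and 0 (4 and 14 at an unadjusted p under 0.05). With 1 array left out, 0 to 9 probe sets, 0 marker genes and 0 to 1 others were called (3578 to 4622, 3 to 5 and 12 to 16 at an unadjusted p under 0.05), in fits with fewer arrays. A variance trend with robust eBayes called 1349 probe sets, and array weights called 2075 probe sets and 10 other macrophage genes; the cause was not tested. With the replicate number as a block, 498 probe sets and 2 marker genes were called. Deviations of same-numbered arrays from their genotype's mean correlated at 0.0050, 0.695 and 0.429 for replicates 1, 2 and 3. The labels do not say what a shared number means, so the main fit assumed no pairing. What these arrays may share was not tested. Slco2b1 kept a negative difference throughout (-3.21 to -1.46), as did Rnase4 (-2.32 to -1.82), Mrc1 (-2.18 to -1.22), Maf (-0.71 to -0.38) and Adgre1 (-0.51 to -0.25). Maf was called under the variance trend, array weights and averaged probe sets. With 1 array left out Gpr34 ranged from -0.18 to 0.0055, positive without Gata3+/- replicate 3 alone. Dim probe sets limit what can be said of Cd163, Lyve1 and Folr2.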
